A study of Mus musculus with 12 samples.

Results

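The VEGF ligands Vegfa, Vegfb and Vegfc and the endothelial genes Kdr, Flt1, Pecam1, Cdh5, Tek, Tie1 and Eng were followed in Myc-driven mammary tumours of mice with and without the kinase gene Hunk. They were taken as the probe sets that the array's annotation gives one of these 10 gene symbols, which yielded 15 probe sets. The platform names 12394 genes by a single symbol, on 20393 of its 22690 probe sets. All 15 were kept.

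The series holds 12 expression arrays of mammary gland tumours from female FVB mice, 6 labelled Hunk knockout and 6 labelled Hunk wild type. Every animal of both groups carried a c-myc transgene under the mouse mammary tumour virus (MMTV) promoter, which is active mainly in mammary epithelium. The knockout allele lacked a 1.1 kb fragment with the presumed promoter and exon 1, exchanged for a neomycin cassette between LoxP sites, and was made in E14 embryonic stem cells with a vector from a 129/Sv library. Females were mated 2 times and then watched for tumours, which could reach 20 mm across; ages were not given in the sources used here. Each array measured biotin-labelled cRNA from total tumour RNA, so fewer cells of a type and less RNA per cell cannot be told apart. The labels do not say whether each array came from a different mouse, so p-values measure the spread between these samples. Values are deposited GCRMA signals on the log2 scale, in which 1 unit is a doubling.

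VEGF proteins are secreted ligands that drive the growth and leakiness of blood vessels. VEGF-A, the product of Vegfa, is induced by low oxygen and binds KDR (VEGFR2), the main signalling receptor of endothelial cells, and FLT1 (VEGFR1), which often acts as a decoy. VEGF-B binds FLT1, and VEGF-C acts mainly on lymphatic vessels through FLT4 and also binds KDR. PECAM1 and CDH5 (VE-cadherin) hold endothelial cells together, TEK (Tie2) is the angiopoietin receptor and TIE1 its partner, and ENG (endoglin) is a TGF-beta co-receptor. In a tumour the ligands can come from the cancer cells, while the receptors mark mostly the vessels.

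RefSeq start sites on GRCm38.p6 were found for 8 of the 10 genes, in 9 windows of 250 bases that end at a start. Pecam1 and Cdh5 had no entry. The windows of Vegfa, Vegfb and Flt1 are shown because Vegfa had the widest difference between the genotypes and Vegfb and Flt1 bind as ligand and receptor and ran in opposite directions across arrays. Each is written 5′ to 3′ on the gene's own strand, which is the minus strand for all 4 windows. Capitals mark ACGTG, the core to which hypoxia-inducible factor can bind, and GGGCGG, the core to which Sp1 can bind, each on either strand (CACGT and CCGCCC on the other).
Vegfa, upstream start, chr17:46032378-46032627: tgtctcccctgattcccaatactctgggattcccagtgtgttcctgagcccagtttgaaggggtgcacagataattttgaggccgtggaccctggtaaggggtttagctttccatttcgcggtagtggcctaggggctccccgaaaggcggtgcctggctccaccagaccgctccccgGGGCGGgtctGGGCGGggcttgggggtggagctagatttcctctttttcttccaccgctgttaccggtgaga
Vegfa, downstream start, chr17:46025164-46025413: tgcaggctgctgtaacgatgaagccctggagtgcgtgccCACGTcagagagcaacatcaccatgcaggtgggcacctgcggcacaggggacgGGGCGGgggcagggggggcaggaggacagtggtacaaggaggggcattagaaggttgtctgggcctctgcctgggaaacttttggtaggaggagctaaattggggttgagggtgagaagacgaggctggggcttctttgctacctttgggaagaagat
Vegfb, chr19:6987652-6987901: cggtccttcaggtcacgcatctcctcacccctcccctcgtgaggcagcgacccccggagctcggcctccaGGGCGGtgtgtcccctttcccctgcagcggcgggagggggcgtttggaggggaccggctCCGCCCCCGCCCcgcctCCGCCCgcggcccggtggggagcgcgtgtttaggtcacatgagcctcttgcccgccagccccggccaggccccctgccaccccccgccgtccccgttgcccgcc
Flt1, chr5:147726012-147726261: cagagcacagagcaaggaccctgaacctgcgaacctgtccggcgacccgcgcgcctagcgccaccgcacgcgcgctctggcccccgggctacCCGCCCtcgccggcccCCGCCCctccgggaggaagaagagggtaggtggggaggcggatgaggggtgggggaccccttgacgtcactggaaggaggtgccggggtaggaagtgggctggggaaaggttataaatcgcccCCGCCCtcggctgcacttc

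The ACGTG core stood in 1 of the 9 windows, the downstream Vegfa start, against 16.6% of all 32851 windows of this length. The GGGCGG core stood in 6 of the 9, against 32.7% of all windows. Vegfb held 4 such cores, of which 2 adjoin, Flt1 held 3, and the upstream Vegfa start, Vegfc and Kdr held 2 each. The windows of Tek, Tie1 and Eng held neither core. These matches describe the letters of the windows, not sites in use.

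Arrays have no read depth, so precision rests on having 6 of them in each group. Array medians ran from 3.87 to 4.10, and the median was 0.06 higher in the knockouts. An array's background was taken as the highest of its 27 Bacillus control probe sets, whose targets are bacterial genes; it ran from 3.45 on wild type 5 to 4.00 on knockout 3. The Hunk probe set lay above background on 0 of 6 knockout and 4 of 6 wild-type arrays, at 2.95 ± 0.17 and 4.21 ± 1.05 (SD, n = 6 each); where its probes lie relative to the deleted exon is not given in the sources used here. The beta-actin signal at the 3′ end minus that at the 5′ end, a measure of RNA integrity, was 1.51 ± 0.15 in the knockouts and 1.29 ± 0.05 in the wild types (SD, n = 6 each). Of all pairs of arrays, knockouts 4 and 5 differed the least.

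The first question was whether loss of Hunk goes with a change in these genes. No member passed the test, and the clearest difference was a higher Vegfa signal in the knockouts, by 2.06-fold and 1.89-fold on its 2 probe sets. Vegfb was near 1-fold with a wide spread among knockouts, and Vegfc, Flt1 and Eng differed by at most 1.25-fold. Kdr, Pecam1, Cdh5 and Tie1 were not measured above background on any array. The test was limma's moderated test with Benjamini-Hochberg adjustment over the 11313 probe sets whose mean exceeded the median of all (3.98). It called 0 of the 6 member probe sets in that set at an adjusted p under 0.05, where 278 of all tested, or 2.46%, were called (133 higher and 145 lower in the knockouts). At an unadjusted p under 0.05 the members gave 2 of 6, both of Vegfa, beside 19.1% of all tested.

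**Figure D1:**
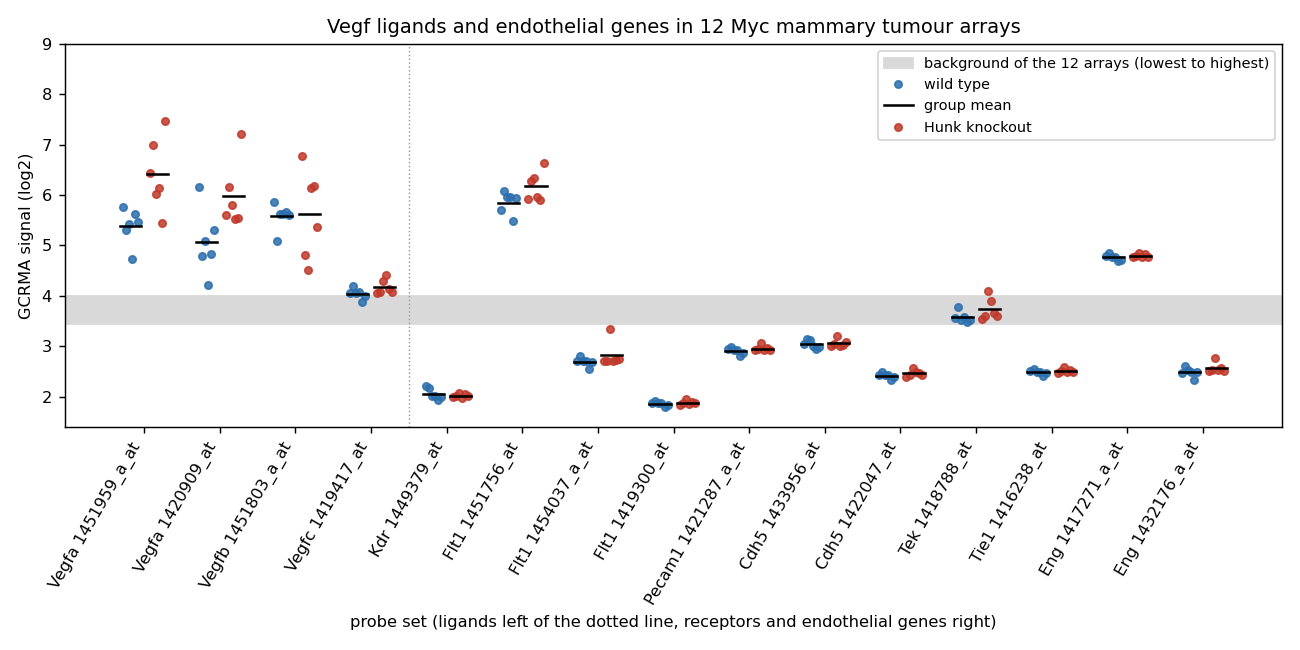
GCRMA signal (log2) of the 15 member probe sets on each array, with blue points for the 6 wild types, red points for the 6 Hunk knockouts, black bars for group means and a grey band for the range of array backgrounds (3.45 to 4.00). Both Vegfa probe sets sit higher in the knockouts, Vegfb is spread more widely in the knockouts, and 8 probe sets of receptors and endothelial genes lie below the band.

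Vegfa, the ligand induced by low oxygen, was read by 2 probe sets. On 1451959_a_at the 6 knockout arrays ran from 5.45 through a median of 6.30 to 7.48, and the 6 wild types from 4.73 through 5.44 to 5.76. Knockouts 6 and 2 were highest, 5 of the 6 knockouts lay above every wild type, and only knockout 5 fell among them. The difference was 1.04 (SE 0.31, 95% interval 0.38 to 1.70), with an adjusted p of 0.0920 by limma and an exact permutation p of 0.00866 for this probe set alone. On 1420909_at the knockouts ran from 5.53 through 5.71 to 7.22 and the wild types from 4.22 through 4.96 to 6.15. Here the groups overlapped more, since wild type 1 lay above 4 of the 6 knockouts, and the difference was 0.92 (SE 0.34, 95% interval 0.17 to 1.66). Its adjusted p was 0.173 by limma and its exact permutation p 0.0303. All 6 knockouts lay above the wild-type median on both probe sets. The beta-actin difference was higher in the knockouts too, and with it as a covariate the changes were 1.15 and 0.75 (adjusted p = 0.262 and 0.575 by limma).

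The 2 Vegfa probe sets ordered the arrays alike. Across the 12 arrays their Pearson r was 0.88 (permutation p = 0.00021) and Spearman's rho 0.85 (permutation p = 0.00086). It was 0.73 without knockouts 6 and 2, the arrays farthest from the median. Within the groups it was 0.85 over the knockouts (exact p = 0.0167) and 0.82 over the wild types (exact p = 0.0708). The Vegfa signal did not follow the arrays' background, with r of 0.02 and 0.14 against the Bacillus controls. Its range over the 12 arrays was 2.75 on 1451959_a_at, wider than 94.8% of all non-control probe sets.

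Vegfb, which codes for the FLT1 ligand VEGF-B, was the least uniform member among knockouts. They ran from 4.51 through 5.75 to 6.78, and the wild types from 5.08 through 5.63 to 5.85. Knockouts 1, 4 and 5 lay above all wild types, and knockouts 2 and 3 below all of them. The means were 5.63 ± 0.88 and 5.58 ± 0.26 (SD, n = 6 each), and the difference of 0.05 (95% interval -0.69 to 0.80) had an adjusted p of 0.946 by limma. Its sign turned in several alternatives, such as without knockout 1 (-0.18). Within the knockouts Vegfb ran against the beta-actin difference (r = -0.79, exact p = 0.0431) and Eng 1417271_a_at ran with it (r = 0.78, exact p = 0.0375), over 6 relations of which none passed adjustment across all 12 arrays (adjusted permutation p = 0.147). The part of RNA integrity in Vegfb was not tested beyond a fit with that difference as a covariate, which gave 1.01 (adjusted p = 0.208 by limma).

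Vegfc, whose product acts on lymphatic vessels, lay just above background. The knockouts ran from 4.05 through 4.11 to 4.42 and the wild types from 3.88 through 4.05 to 4.20. The groups overlapped, with knockouts 4 and 3 above all wild types, and the difference was 0.13 (SE 0.08, adjusted p = 0.375 by limma). Its values followed the Bacillus controls with r = 0.74 across the 12 arrays, and that control signal was 0.07 higher in the knockouts on average.

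Flt1, the VEGFR1 receptor, was the only receptor member read well above background, and by 1 of its 3 probe sets. On 1451756_at the knockouts ran from 5.90 through 6.11 to 6.63 and the wild types from 5.48 through 5.95 to 6.07. Knockouts 6, 3 and 2 lay above all wild types, and the other knockouts fell among them. The difference was 0.32 (SE 0.16, 95% interval -0.02 to 0.66), or 1.25-fold, with an adjusted p of 0.286 by limma and an exact permutation p of 0.0736. The other 2 Flt1 probe sets, 1454037_a_at and 1419300_at, were below background on all 12 arrays, with differences of 0.13 and 0.02.

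Eng, the TGF-beta co-receptor, was read by 1417271_a_at between 4.77 and 4.84 in the knockouts and between 4.70 and 4.86 in the wild types, with medians of 4.78 in both. The groups overlapped throughout and the difference was 0.03 (SE 0.06, adjusted p = 0.830 by limma), with its sign turned when arrays were centred on their medians. Although above background on all 12 arrays, it spanned only 0.163, less than all but 7.16% of the non-control probe sets, and it followed the Bacillus controls with r = 0.85. Its other probe set, 1432176_a_at, was below background on every array.

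**Figure D2:**
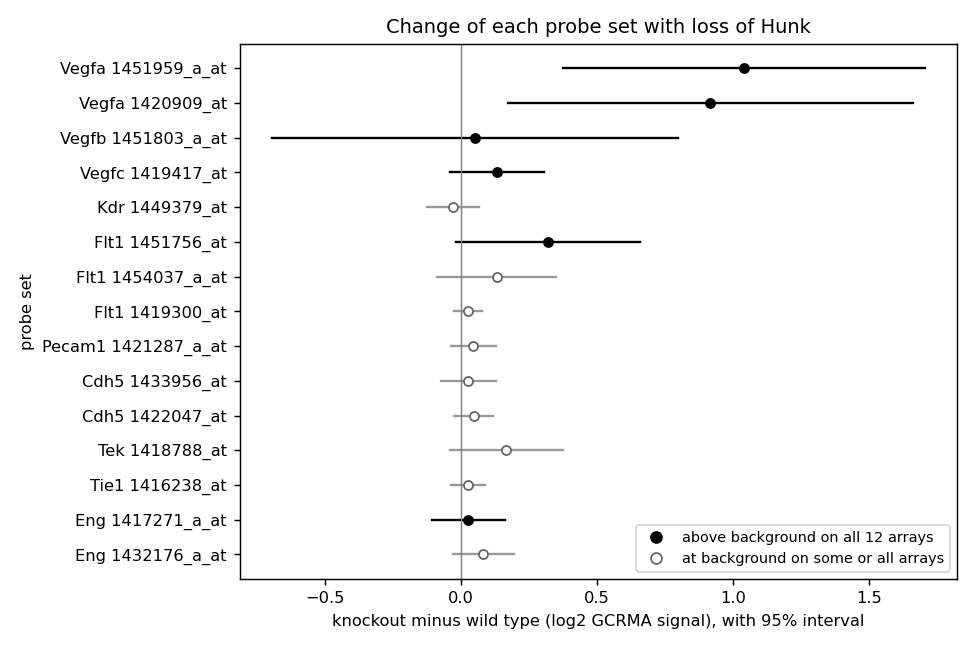
Knockout minus wild type (log2 GCRMA signal) of each member probe set with its 95% interval; filled points were above background on all 12 arrays and open points were not. Only the intervals of the 2 Vegfa probe sets lie wholly above 0.

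The probe sets of the endothelial members mostly stayed at the arrays' floor. Of the 15 member probe sets 6 were above background on all 12 arrays, or 40.0%, beside 49.1% of all 22626 non-control probe sets; 8 were above it on none, or 53.3%, beside 39.0% of all. All 8 belong to endothelial genes, namely the junction genes Pecam1 and Cdh5 (both probe sets), the receptors Kdr and Tie1, and the low probe sets of Flt1 and Eng. Tek, the angiopoietin receptor, was above background on 4 arrays, knockouts 3 and 4 and wild types 2 and 5, with 3.54 to 4.10 in the knockouts and 3.47 to 3.78 in the wild types. Its difference of 0.17 (SE 0.10) had an adjusted p of 0.513 in limma's fit over all 22626 probe sets. In that fit the 8 probe sets below background differed by -0.03 to 0.13 and none passed. These values limit the signal of those probe sets, not the amount of vessel in the tumours.

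The 8 low probe sets varied little, and mostly in the order of the arrays' background. Their ranges over 12 arrays had a median of 0.260, beside 0.384 for the 27 Bacillus controls and 0.660 for all non-control probe sets. All 8 were lowest on wild type 5 and 7 of the 8 were highest on knockout 3. The Bacillus controls showed the same order, with 27 of 27 lowest on wild type 5 and 26 of 27 highest on knockout 3. The correlation of the 8 with the Bacillus controls ran from 0.50 to 0.97.

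**Figure D3:**
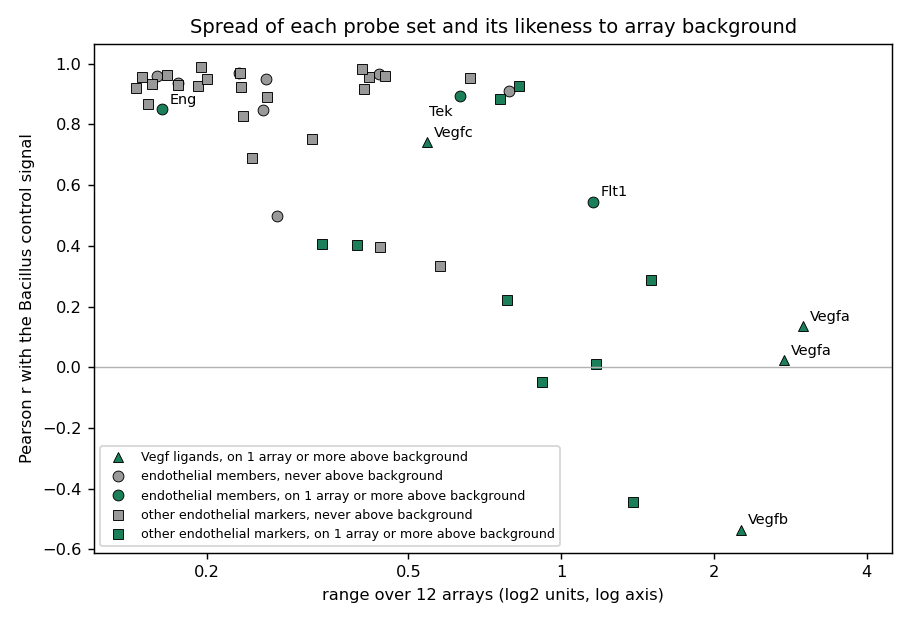
Range of each probe set over the 12 arrays (log2 units, log axis) against its Pearson r with the Bacillus control signal, for the Vegf ligands (triangles), the endothelial members (circles) and other endothelial markers (squares); grey marks are below background on all 12 arrays and green marks above it on at least 1. Grey marks crowd at small ranges and high r, Vegfa and Vegfb lie at the wide end with r from -0.54 to 0.14, and Flt1 lies between (range 1.16, r 0.55).

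With the group means removed, the 7 endothelial members, each by its probe set of highest mean, correlated with r from 0.21 to 0.97 over 21 pairs, with a median of 0.69. The highest was Pecam1 with Tie1, both below background on all arrays. The 6 pairs with Flt1 had a median of 0.39 and the other 15 pairs a median of 0.78. The same 7 genes correlated with the Bacillus controls with a median of 0.86. These are descriptions over 12 arrays that share their background, and how much of the likeness between endothelial genes is vessel content was not tested.

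The second comparison set each ligand against a receptor it binds, within an array, to ask whether the pair changed unequally. Vegfa minus Flt1 was 0.25 ± 0.54 in the knockouts and -0.47 ± 0.51 in the wild types (SD, n = 6 each). The change of 0.72 had an exact permutation p of 0.0411, adjusted to 0.0548 over 4 pairs, and 4 of 6 knockouts lay above every wild type. Those 4 pairs include the ones with Kdr, a receptor below background on all 12 arrays, and their lower exact p-values eased this adjustment. All adjusted values of this comparison rest on the same 4 pairs. Vegfa minus Flt1 passed when the probe sets of a gene were averaged (0.82, adjusted exact p = 0.0375). That average takes in Flt1 1454037_a_at and 1419300_at, both below background on all 12 arrays, so nothing is drawn from that pass. The difference also passed without knockout 3 (0.83, adjusted exact p = 0.0433) and without knockout 5 (0.86, adjusted exact p = 0.0289). It did not pass with any other array left out (adjusted exact p from 0.0548 to 0.115). With the replicate block the adjusted exact p was 0.167, but swaps within replicate pairs are too few for that test to decide. Vegfb minus Flt1 changed by -0.27 (adjusted exact p = 0.591). Vegfa minus Kdr changed by 1.07 and Vegfc minus Kdr by 0.16, each with an adjusted exact p of 0.0216, but Kdr was below background on all 12 arrays, so these restate the ligands against a floor. Both missed the threshold without most single wild-type arrays, Vegfa minus Kdr without any of the 6 (adjusted exact p from 0.0519 to 0.0649) and Vegfc minus Kdr without wild types 1, 2, 3, 5 or 6 (0.0519 to 0.0693).

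The third comparison followed the 3 ligands against the 7 endothelial genes across the 12 arrays, 21 relations in all. Vegfa and Flt1 gave r = 0.62 (adjusted permutation p = 0.125) and rho = 0.24. It rested on knockouts 6 and 2, which are high in both: without them r was 0.07, and within the groups r was 0.74 over the knockouts (exact p = 0.0958) and -0.56 over the wild types (exact p = 0.243). Vegfb and Flt1 ran in opposite directions, with r = -0.52 (adjusted permutation p = 0.251) and rho = -0.78 (adjusted permutation p = 0.0437). The sign held within the knockouts (r = -0.72, exact p = 0.108) and the wild types (r = -0.59, exact p = 0.208), and without knockouts 1 and 3 (r = -0.50). The 2 genes also ran in opposite directions against the Bacillus controls (r = -0.54 and 0.55) and against the beta-actin difference (r = -0.46 and 0.52), whose part in this relation was not tested. Vegfb had a negative r with all 7 endothelial genes, from -0.63 with Cdh5 (adjusted permutation p = 0.125) to -0.27 with Kdr. The opposite direction was thus not particular to Flt1, and Cdh5 and Kdr were below background on all arrays. Vegfc and Flt1 gave r = 0.39 (adjusted permutation p = 0.361). Vegfc and Tek gave r = 0.88 (adjusted permutation p = 0.00966) and rho = 0.96, with 0.85 over the knockouts and 0.90 over the wild types, and 0.90 without knockouts 4 and 3. Both follow the Bacillus controls, with r = 0.74 and 0.89, and the part of background in their relation was not tested. Vegfc had a positive r with all 7 endothelial genes, from 0.23 with Kdr upward, so the direction was not particular to Tek. Over the wild types Pecam1, Tie1 and Eng gave 0.95, 0.98 and 0.93 with Vegfc, and over the knockouts 0.33, 0.30 and 0.22.

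**Figure D4:**
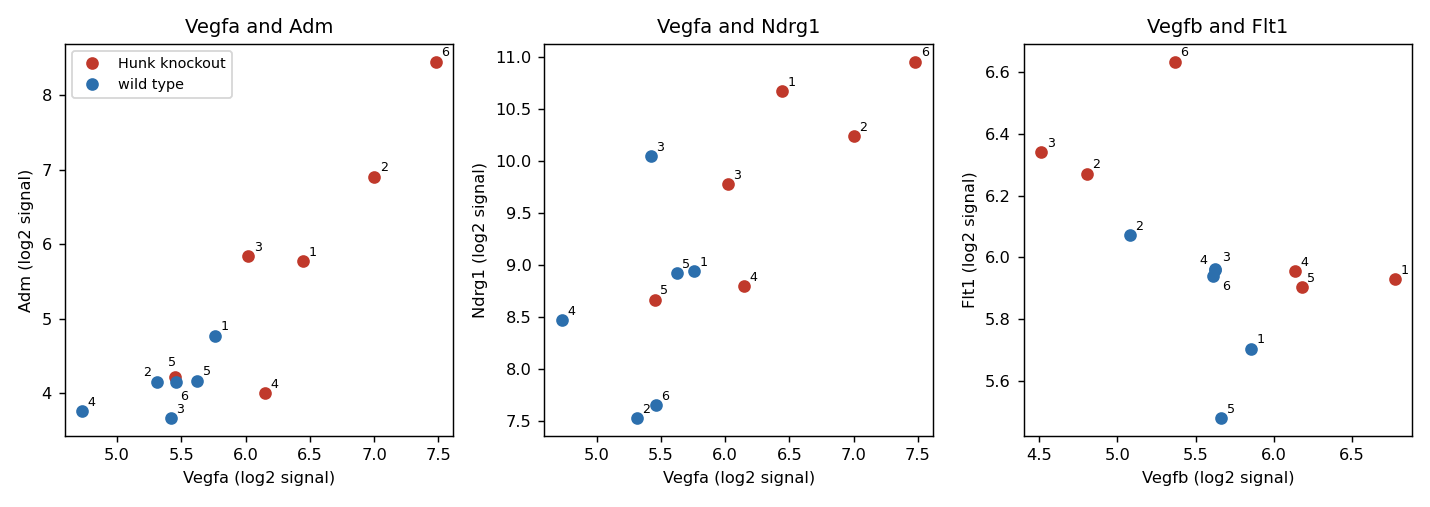
Signals (log2) of Vegfa (1451959_a_at) against the hypoxia-induced genes Adm and Ndrg1 and of Vegfb against Flt1, one point per array with its replicate number, red for knockout and blue for wild type. Adm rises with Vegfa (r = 0.91), with knockouts 6 and 2 at the top, and Flt1 falls as Vegfb rises in both groups (r = -0.72 and -0.59).

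The genes whose signal ran most like Vegfa, over 6820 named genes with group means removed, were Fam3c (r = 0.92), Adm (0.85), Zfand2a (0.85), Tcaf2 (0.83), Hilpda (0.82) and Rhoc (0.81). Adm codes for adrenomedullin, a vasodilator peptide, and Hilpda for a lipid droplet protein, and both are known as hypoxia-induced genes. Fam3c, a secreted protein, differed by -1.71 in the knockouts (adjusted p = 0.0722 by limma), although within each group it ran with Vegfa (0.97 and 0.73). Adm was 1.75 higher in the knockouts (adjusted p = 0.160 by limma). The profile of the endothelial members above background on all arrays, which are Flt1 and Eng, was most like Nucb2 (r = 0.93), Pde7a (0.92), Orm2 (0.88), Lipa (0.87), Trim27 (0.87) and Tlr4 (0.87). Of these, Lipa is a lysosomal lipase, Orm2 an acute-phase protein and Tlr4 the receptor for bacterial endotoxin, and none is a vessel marker. The profile was a mean of unscaled values, so Flt1 1451756_at (range 1.16) outweighed Eng (range 0.163) in it. Flt1 alone was most like Nucb2 (0.95), Pde7a (0.90), Lipa (0.87) and Orm2 (0.87), and Flt1 and Eng correlated by 0.33. The ranking thus describes mostly 1 probe set, not a profile shared by endothelial genes.

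Further genes of VEGF and angiopoietin signalling gave 1 call in 11 tested probe sets of 9 genes, where 2.46% of all tested were called. Ephb4, the venous receptor for ephrin-B2, fell by 0.63 on the log2 scale (SE 0.13), from 6.35 ± 0.12 in the wild types to 5.72 ± 0.26 in the knockouts (SD, n = 6 each), with an adjusted p of 0.0284 by limma. The call held in 6 of 12 fits that left out 1 array, with adjusted p up to 0.0603, and the 6 knockouts (up to 5.98) lay below the 6 wild types (from 6.20), as in 2.87% of all probe sets tested; no member's groups were apart in this way. EPHB4 is also made by mammary epithelium, and the cell type behind its signal was not tested. None of the 11 was called higher, and their median change was -0.22, beside 0.01 over all tested. Of the 11, 5 had a mean above that of the wild types, of which Angptl4, a secreted regulator of lipoprotein lipase, differed most (0.73, adjusted p = 0.455 by limma). Hif1a, the oxygen-regulated transcription factor subunit, differed by -0.34 (8.10 ± 0.49 against 8.43 ± 0.39), Notch1 by -0.27 and Thbs1, the angiogenesis inhibitor thrombospondin-1, by -0.38, with adjusted p from 0.448 to 0.663 by limma. Of the 25 genes of this list 11 were below background with every probe set on all arrays, and the lymphatic receptor Flt4, the ligand Vegfd, the angiopoietins Angpt1 and Angpt2 and the tip-cell ligand Dll4 were among them.

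Other endothelial markers were mostly below background as well. Of 22 genes found on the array, 16 were below background on all arrays with every probe set. Of the list's tested probe sets 0 of 6 passed, beside 2.46% of all tested, with a median change of -0.06. Egfl7, a protein secreted by endothelial cells, was 6.62 ± 0.06 in the knockouts and 6.68 ± 0.15 in the wild types on its probe set of highest mean. Plvap, which forms the diaphragms of fenestrated vessels, was 5.25 ± 0.47 and 5.31 ± 0.28, and Clec14a, an endothelial lectin, 4.59 ± 0.24 and 4.37 ± 0.15 (SD, n = 6 each). All 3 overlapped between the groups. The mean signal over this list's probe sets that were above background on all arrays ran from 4.85 to 5.20 in the knockouts and from 4.77 to 5.18 in the wild types. Pericyte and smooth muscle genes gave 0 of 6 calls with a median change of 0.15; Rgs5, a pericyte marker, was 7.24 ± 1.09 and 7.40 ± 0.92, and Acta2, smooth muscle actin, 9.27 ± 0.28 and 9.03 ± 0.32.

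Hypoxia-induced genes, a group that Vegfa itself belongs to, gave 2 calls in 24 tested probe sets, where 2.46% of all tested were called. Of 24 tested probe sets of 13 genes, Ddit4 and Ldha were called higher and 0 were called lower, with a median change of 0.58 beside 0.01 over all tested; probe sets of Egln3, P4ha1 and Kdm3a had lower means in the knockouts without passing. Ddit4, a stress-induced inhibitor of mTORC1, rose by 1.80 from 8.74 ± 0.74 to 10.53 ± 0.28 (SD, n = 6 each; adjusted p = 0.00920 by limma), and it passed in all 12 fits that left out 1 array. Ldha, the lactate dehydrogenase subunit of glycolysis, rose by 0.61 from 11.61 ± 0.27 to 12.22 ± 0.14 (adjusted p = 0.0259 by limma), passed in 10 of those 12 fits and had an adjusted p of 0.0570 with arrays centred on their medians. Pgk1, a glycolytic kinase, was 0.63 higher (adjusted p = 0.0648 by limma). Egln3, an oxygen sensor that is itself induced by low oxygen, was lower on both probe sets, by -2.03 and -2.18 (adjusted p = 0.0526 and 0.0689 by limma).

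The lists of other cell types that a tumour can hold gave no calls by limma in 1 platelet, 9 macrophage, 2 adipocyte, 6 fibroblast and 9 epithelial probe sets tested. Over all probe sets tested, 2.46% were called. The same mean ran, in knockouts and wild types, from 6.67 to 10.55 and from 5.30 to 7.74 for adipocytes, from 8.56 to 9.91 and from 8.29 to 9.37 for fibroblasts, and from 7.02 to 7.64 and from 7.34 to 7.71 for macrophages. For epithelial genes it ran from 10.19 to 10.99 and from 9.60 to 10.48. The adipocyte mean rested on 2 probe sets of 1 gene, Fabp4. Of the other adipocyte genes, Retn and Cidec were below background on all arrays and Adipoq was above it on 1 array. Fabp4, a fatty acid carrier, was 1.51 higher in the knockouts (adjusted p = 0.230 by limma), and the cell type behind its signal was not tested. Col3a1, a fibroblast collagen, was 0.94 higher (adjusted p = 0.0739 by limma). Krt14, a keratin of basal and myoepithelial cells, was 2.52 and 2.08 higher on 2 probe sets (adjusted p = 0.226 and 0.230 by limma), and Cd14, the endotoxin co-receptor of myeloid cells, 1.24 higher (adjusted p = 0.168 by limma). Krt5, another keratin of the epithelial list, differed the other way, by -0.56 (adjusted p = 0.656 by limma), and was above background on 6 arrays. The complement genes C1qa and C1qb, which macrophages make, were lower, by -0.52 and by -0.69 to -0.51 on 3 probe sets (adjusted p = 0.0897 to 0.198 by limma). Tested probe sets of the other macrophage genes, Cd68, Adgre1, Csf1r and Mrc1, differed by -0.15 to -0.02 (adjusted p = 0.596 to 0.986 by limma). The part of the genes of these lists in the Vegfa difference was not tested.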

How the data were processed

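The authors deposited one table of log2 signals, normalised with GCRMA per the submitters' processing notes; the scanner files and array batches were not used here. Values ran from -0.07 to 14.72, and 64 control probe sets were left out of tests. Probe sets were named from the platform annotation and, for promoters, RefSeq. The genes and lists were chosen with earlier results of these data known. Groups came from the labels' titles.

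Knockouts and wild types were compared with limma 3.58.1 in R 4.3.3 (lmFit, eBayes with trend), over the 11313 probe sets above the median mean, with Benjamini-Hochberg adjustment; members below it came from a fit over all 22626. Single values and ligand-receptor differences had two-sided exact permutation tests over 924 splits of 6 against 6, whose smallest p is 0.00216. For these differences the replicate block allows far fewer arrangements, since arrays are swapped only within replicate pairs. Correlations over 12 arrays had 100000 resamples, and those within groups exact pairings. The limma step was tested on simulated data. The labels do not say whether replicate numbers pair the samples. Deviations of same-numbered arrays correlated by -0.02 to 0.14, with no baseline from differently numbered arrays, so these values do not settle it. All member probe sets are named; from each list, calls and up to 3 genes of highest mean; and the 6 genes most like Vegfa and most like the endothelial members. Other genes of a list were named after their values were seen. Figures were drawn with matplotlib 3.10.9. The alternatives were other filters, variance models, scalings, offsets, covariates, gene summaries and arrays left out.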

Additional observations from a re-analysis of the deposited data

Results flagged for a closer look

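Dixon's test of the highest and lowest array was applied to 30 groups of 6 arrays, the 15 member probe sets in each genotype, and 6 passed its critical value; chance alone gives about 1 in 20 groups. Vegfa 1420909_at was 7.22 on knockout 6, with the next knockout at 6.16. Vegfb was 5.08 on wild type 2, with the next at 5.61. Tek was 3.78 on wild type 2, with the next at 3.58. Knockout 3 stood apart on 3 probe sets that were below background there, Flt1 1454037_a_at at 3.35 (next 2.74), Pecam1 at 3.06 (next 2.96) and Eng 1432176_a_at at 2.77 (next 2.56), and it had the highest background of all arrays, 4.00.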

How the results depend on the processing

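The count of called members stayed at 0 in 27 of 28 alternatives of the limma fit and was 1, Vegfa 1451959_a_at, at a threshold of 0.1. The 2 Vegfa changes kept their sign in every alternative that tested them, from 0.83 to 1.23 (adjusted p 0.0521 to 0.262) and from 0.67 to 1.13 (0.0934 to 0.575). With a replicate block they had adjusted p of 0.130 and 0.170, all-probe calls fell from 278 to 112, and no member call changed. Vegfb turned negative with arrays centred on their medians (-0.0056), with knockouts 4 and 5 averaged (-0.054), and without knockout 1, 4 or 5 or wild type 2 (-0.18 to -0.048); with each array left out in turn it ranged from -0.18 to 0.27. Eng turned negative with median centring (-0.031) and with the beta-actin covariate (-0.0098). The cause was not tested.

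Vegfa minus Kdr ranged from 0.86 to 1.27 and Vegfc minus Kdr from 0.10 to 0.18 with single arrays left out. In the block of replicate pairs the changes were 1.07 and 0.16 (adjusted exact p = 0.125 each). That block swaps arrays only within pairs, so after adjustment it could hardly pass the threshold, and nothing is drawn from its miss. Vegfa minus Flt1 ranged from 0.57 to 0.86 and passed with probe sets averaged (0.82), an average that takes in Flt1 probe sets below background on every array. Hypoxia calls were 1 with median centring. Counts of calls over all probe sets ran from 104 with the beta-actin covariate to 602 with array weights. No member passed the filter at the 75th percentile, so that setting tested none. The floor at array background was an alternative chosen after seeing the data. Most probe sets of the endothelial members were below background on every array, so changes that stay below it could not be read from them. Flt1 and Eng were each also read by a probe set above background on all 12 arrays.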

Other observations

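Vegfa (1451959_a_at) was set against 13 hypoxia-induced genes across the 12 arrays, a family chosen after the values had been seen. The correlation was positive for 11 of the 13 over all arrays and for 10 without knockouts 6 and 2. It was positive for 12 within the knockouts and for 12 within the wild types. The share of positive correlations over all genes was not computed, so these counts have no baseline. With the group means removed, r ran from -0.17 for Ldha to 0.85 for Adm. Adm, the vasodilator adrenomedullin, gave r = 0.91 (adjusted permutation p = 0.0013) and rho = 0.77 (adjusted 0.0356), with 0.71 without knockouts 6 and 2, 0.90 within the knockouts (exact p = 0.0222) and 0.68 within the wild types (exact p = 0.153). Ndrg1, a stress-induced differentiation gene, gave r = 0.76 (adjusted permutation p = 0.0246) and rho = 0.76, with 0.59 without those arrays, 0.83 within the knockouts (exact p = 0.05) and 0.21 within the wild types (exact p = 0.706). The other 11 genes had adjusted permutation p of 0.0568 or more. Egln3 gave r = -0.14 over all arrays but 0.82 within the knockouts (exact p = 0.0569) and 0.62 within the wild types (exact p = 0.206), since its level was lower in the knockouts. Ddit4, the gene of this family with the clearest difference between genotypes, gave -0.40 within the knockouts and 0.65 within the wild types (exact p = 0.428 and 0.160).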
